A study of Danio rerio with 8 samples.

Results

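The proteins described here build the mitochondrial ribosome and carry other proteins into the mitochondrion. They were taken as every zebrafish gene whose symbol starts with mrpl, mrps, timm or tomm. The RefSeq gene table used for names lists 101 such genes, and 72 of them had a probe matched by RefSeq accession. Probes without such an accession were not matched, so other genes of these names may also be on the array. Of these, 71 were measured, out of 21519 transcripts tested (8904 named genes and 12615 probes without a gene name). A gene counted as measured where the scanner had marked its probe as well above background on 4 or more of the 8 arrays. All 71 reached that level on all 8 arrays. The remaining gene, mrps11, reached it on 1 sorafenib array and on 0 controls, and no fold is given for it.

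Hearts came from zebrafish larvae at 4 days post-fertilization that had been kept in 1 uM sorafenib, or in a vehicle that the labels do not name, between 72 and 96 hours of development. The drug is an anticancer kinase inhibitor that blocks RAF and several receptor tyrosine kinases, among them the receptors for vascular endothelial growth factor. Each group had 4 arrays, which the labels describe as independent experiments. The sources used here name neither the strain nor the number of hearts behind an RNA sample. The comparison asks which heart transcripts differ between drug and vehicle. RNA came from whole heart tissue, so fewer cells of a type and less RNA per cell cannot be told apart.

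Mitochondria keep a small genome that encodes core subunits of the respiratory chain and the ATP synthase, and a ribosome of their own translates its messages. All proteins of that ribosome are encoded in the nucleus, made in the cytosol and imported. The TOM complex is the entry gate in the outer membrane. The TIM23 complex then passes proteins into the matrix and inner membrane, and the small TIM chaperones and the TIM22 complex deliver carrier proteins to the inner membrane. Heart muscle is rich in mitochondria. The roles given below are those known from yeast and human proteins.

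Detection of tissue markers was looked at first. Of 14 heart muscle markers with a probe, 13 were well above background on all 8 arrays, among them myl7, tnnt2a and nppa, and gata4 was so on 2. The same held for 23 of 25 neural, 18 of 18 liver and plasma, and 17 of 22 digestive tract, pancreas and yolk markers. It held for 15 of 20 endothelial, 9 of 10 blood and 2 of 11 eye and lens markers. Detection alone thus cannot tell heart from neighbouring tissue in the samples. Arrays correlated at 0.946 to 0.985 within a group and 0.947 to 0.987 between groups. Between 54.98% and 59.54% of the spots of an array were well above background. Precision was limited by the number of arrays and by the spread between them.

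No gene of the mitochondrial ribosome or of the import machinery passed the test between sorafenib and control. Signals are log2 processed signals relative to the 75th percentile of each array. Fold changes are sorafenib minus control on that scale. The test was limma, with p-values adjusted by the Benjamini-Hochberg method over all 21519 transcripts and a threshold of 0.05. At that threshold 0 of the 71 members and 0 of all transcripts (0%) were called. At an unadjusted p under 0.05 the count was again 0 of 71 members, against 7.46% of all transcripts (4.12% higher and 3.35% lower). The smallest p of any member was 0.0886, for mrpl37, with an adjusted p of 0.670. The smallest adjusted p over all transcripts was 0.0997.

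The members' fold changes were small. They ran from -0.20 for tomm40 to +0.37 for mrps25, with a median of +0.15, a ratio of 1.11. Of the 71 members, 58 had a positive fold change (81.7%), against 48% of all transcripts and 53.7% of named genes. The median over all transcripts was -0.02. The 95% confidence interval of each of the 71 lay within a 2-fold change in either direction, and that of 23 within 1.5-fold. The median of the members was also positive with the arrays scaled to their medians (+0.21) or made equal by quantiles (+0.12), and it was -0.34 after normexp background correction. A small number of spots with a very high local background bore on that last value, and it was +0.09 after normexp without them.

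**Figure D1:**
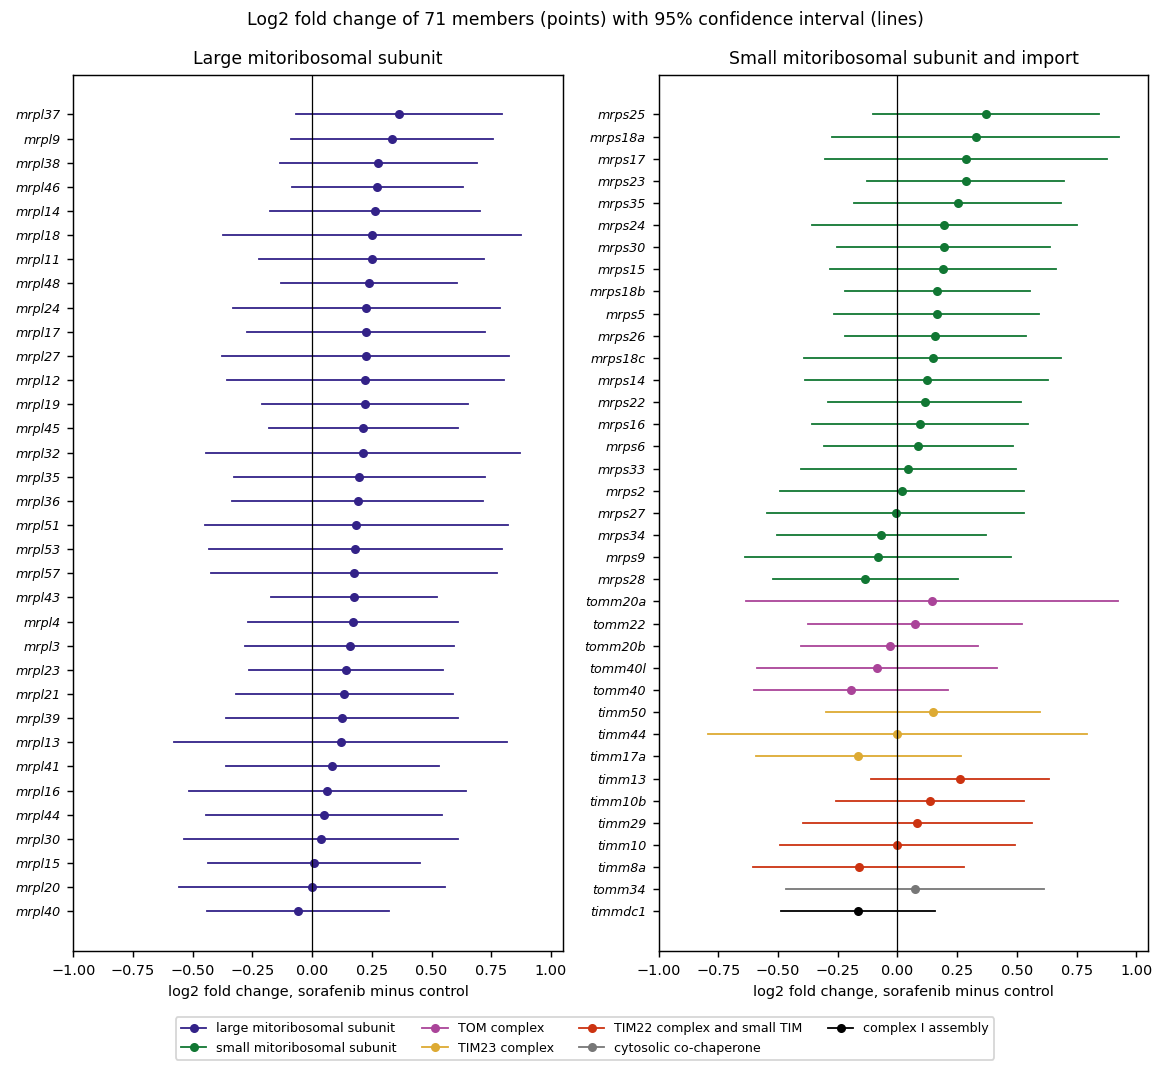
Log2 fold change, sorafenib minus control, of the 71 measured members on the horizontal axis, with genes as rows and role as colour. Points are limma estimates, lines are 95% confidence intervals, and the line of each member crosses 0. The signs shown are those of the 75th percentile scaling. With median scaling 62 of 71 were positive (55.4% of all transcripts), and with quantile normalization 56 (47.6%). After normexp 11 of the 71 estimates were positive, against 57.6% of all transcripts. Without spots of very high local background, left out after seeing the data, normexp gave 53 of 70, against 58.7%.

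The large mitoribosomal subunit forms peptide bonds. Genes were assigned to a subunit by symbol prefix alone, and the place of each protein in the ribosome was not checked. With an mrpl symbol, for the large subunit, 34 genes were measured. Their median fold change was +0.19, and 33 of 34 estimates were positive; that of mrpl20 rounds to 0. The exception was mrpl40, at -0.06, named for its sign after the values were seen. None passed the unadjusted threshold.

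The gene with the smallest p was mrpl37. Its log2 signal was 4.02, 4.03, 3.63 and 3.73 in control replicates 1 to 4 and 4.33, 4.27, 4.43 and 3.84 in sorafenib replicates 1 to 4. Sorafenib replicates 1 to 3 were above all controls and replicate 4 lay between them, so the groups overlapped. The fold change was +0.36 with a 95% interval of -0.07 to 0.80.

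The next was mrpl9, another gene of the large subunit. It read 1.92, 1.89, 1.65 and 1.62 in the controls and 2.23, 2.13, 2.34 and 1.71 with sorafenib. The order of the arrays was much like that of mrpl37, with sorafenib replicate 4 among the controls. The fold change was +0.33 (interval -0.09 to 0.76, adjusted p = 0.676 by limma).

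The small subunit binds and decodes the messenger. With an mrps symbol, taken for the small subunit by prefix alone, 22 genes were measured, with a median fold change of +0.15. Estimates were positive for 18 and negative for mrps28, mrps9, mrps34 and mrps27, which are named for their sign after the values were seen. The lowest of these was -0.14, for mrps28.

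In the controls mrps25 read 2.81, 3.10, 2.91 and 2.94, and with sorafenib 3.22, 3.41, 3.76 and 2.86. Here too the first 3 sorafenib arrays were above all controls, while the fourth was lower than all controls but replicate 1. The mean ± SD was 2.94 ± 0.12 in controls and 3.31 ± 0.38 with sorafenib (n = 4 each). Its fold change of +0.37 was about as large as the spread of the sorafenib arrays, with an interval of -0.10 to 0.84 and an adjusted p of 0.676 by limma.

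For mrps23 the controls read 2.31, 2.33, 2.18 and 2.03, and the sorafenib arrays 2.46, 2.64, 2.75 and 2.15. Again only sorafenib replicate 4 lay within the control range. The fold change was +0.29 (interval -0.13 to 0.70, adjusted p = 0.693 by limma).

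Some estimates rest on probes that need care. The 72 genes had 93 probes, and 18 genes had several that were measured; the brightest was used. The probes of a gene differed most in mrps27, whose 2 probes gave -0.38 and -0.01. In mrps33 alone the probes disagreed in sign, at -0.11 and +0.05. On sorafenib replicate 4 the spot of mrps18c had a local background of 71469 against a foreground of 1082; its processed signal, 1003, had not been lowered by that background, and its log2 value there was 2.71 against 3.51 to 3.64 on the other sorafenib arrays. In the log2 table deposited by the authors, mrps16 stood at the table's lowest value on 8 arrays, mrps33 on 6, mrpl13 on 4 and mrps18c on 1. Counts of members from that table include these genes. The genes of this paragraph are named after their values were seen.

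Taken as one group, the 56 mitoribosomal genes had a median of +0.18 (51 positive). The 13 TOM and TIM genes had one of -0.0002 (6 positive). The difference between these groups was not tested. After normexp both medians were negative, at -0.33 and -0.47. With normexp without the spots of very high local background, left out after seeing the data, they were +0.12 and +0.03.

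The TOM complex was represented by 5 genes with a median of -0.03. The gene tomm40, which encodes the channel of the gate, had the lowest fold change of all members. Its log2 signal was 4.54, 4.22, 4.04 and 3.94 in controls and 3.98, 4.14, 4.00 and 3.84 with sorafenib. Control replicate 1 was the highest, and the other arrays of both groups intermingled. The fold change was -0.20 (interval -0.60 to 0.21, adjusted p = 0.776 by limma).

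The receptor gene tomm20a, whose product recognises import signals, varied more within the groups than between them. It read 2.23, 2.15, 1.84 and 1.28 in the controls and 1.87, 2.46, 2.60 and 1.15 with sorafenib. The lowest array of each group was replicate 4. Its fold change of +0.15 had an SE of 0.35. The paralog tomm20b was at -0.03, the receptor gene tomm22 at +0.07 and the channel gene paralog tomm40l at -0.09.

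Of the TIM23 complex 3 genes were measured. The channel subunit gene timm17a read 5.09, 4.86, 4.87 and 4.53 in controls and 4.87, 4.78, 4.70 and 4.34 with sorafenib. Each sorafenib array was lower than the control of the same number, but the groups overlapped. The fold change was -0.16 (interval -0.59 to 0.27, adjusted p = 0.837 by limma).

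The receptor gene timm50 read 3.56, 3.50, 3.30 and 3.22 in controls and 3.64, 3.69, 3.77 and 3.07 with sorafenib. Sorafenib replicates 1 to 3 were above the controls and replicate 4 was the lowest array of all 8. Its fold change was +0.15 (interval -0.30 to 0.60). For timm44, which anchors the import motor, the estimate was -0.0002 with an interval of -0.79 to 0.79.

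Among the 5 genes of the TIM22 complex and the small TIM chaperones the median was +0.08. The chaperone gene timm13 read 3.80, 3.63, 3.46 and 3.57 in controls and 3.95, 3.94, 4.00 and 3.61 with sorafenib. Sorafenib replicates 1 to 3 lay close together above the controls, and replicate 4 fell within them. Its fold change was +0.26 (interval -0.11 to 0.64, adjusted p = 0.691 by limma).

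The gene of its partner, timm8a, read -1.50, -1.22, -1.64 and -1.32 in controls and -1.90, -1.29, -1.38 and -1.78 with sorafenib. The groups overlapped widely, and the fold change was -0.16 (interval -0.61 to 0.28). The others in this class were timm10 (-0.0002), timm10b (+0.14) and timm29 (+0.08).

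A pair of genes with these prefixes have other roles. The product of timmdc1 helps to assemble respiratory complex I. The gene read 1.88, 1.78, 1.80 and 1.76 in controls and 1.53, 1.68, 1.72 and 1.62 with sorafenib. All 4 sorafenib arrays lay below all 4 controls, and this was the only member of the 71 whose groups did not overlap in either direction. Of all transcripts, 1.91% were entirely lower and 2.24% entirely higher, and the members' counts were 1 and 0. With arrays scaled to their medians 0 members were entirely higher or lower, against 2.2% and 1.19% of all transcripts. With quantile normalization 3 members were entirely higher (mrpl38, mrpl46 and timm13) and timmdc1 entirely lower, against 2.56% and 2.03%. The fold change of timmdc1 was -0.17 (interval -0.49 to 0.16, adjusted p = 0.764 by limma). The cytosolic co-chaperone gene tomm34 read -0.58, 0.10, -0.15 and -0.44 in controls and -0.42, -0.02, 0.25 and -0.59 with sorafenib, with full overlap and a fold change of +0.08.

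**Figure D2:**
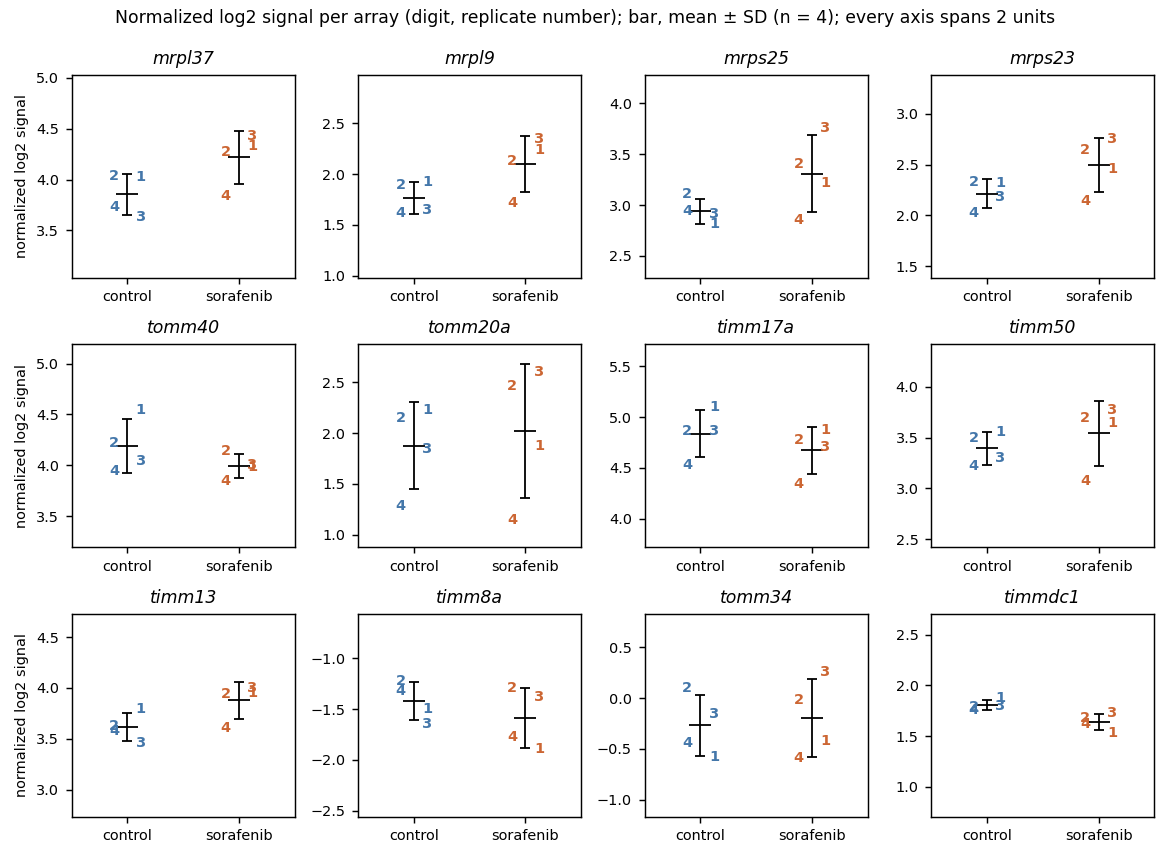
Log2 signal relative to the 75th percentile of the array for 12 members, 2 per role class or the single gene of a class, with control arrays at the left and sorafenib arrays at the right of each panel. Digits are replicate numbers and bars are the mean ± SD of 4 arrays; every panel spans the same height, and under this scaling only in timmdc1 do the groups not overlap.

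Members moved together from array to array, and the sorafenib arrays were further apart than the controls. The SD was larger with sorafenib for 61 of the 71 members (85.9%), against 66.8% of all transcripts. This was not particular to the members. The SD was also larger with sorafenib for 62 of 67 respiratory chain and ATP synthase genes (92.5%). Among cytosolic ribosomal protein genes it was larger for 74 of 76 (97.4%). The median SD of the members was 0.19 in controls and 0.32 with sorafenib. Each member was next set relative to its own mean over the 8 arrays, and the median over members was taken per array. That median was 0.05, -0.01, -0.10 and -0.23 in control replicates 1 to 4. With sorafenib it was 0.14, 0.21, 0.33 and -0.36. Over all transcripts it ran from -0.08 to 0.07. Members were thus highest on sorafenib replicate 3 and lowest on sorafenib replicate 4, arrays of the same group.

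Sorafenib replicate 4 held the lowest value of the 8 arrays for 45 of 71 members (63.4%), and for 23.0% of all transcripts. Sorafenib replicate 3 held the highest value for 44 members (62.0%), and for 20.6% of all transcripts. Taken by symbol prefix, the mrpl genes stood at 0.39 on replicate 3 and -0.38 on replicate 4, and the mrps genes at 0.28 and -0.29. For the TOM and TIM genes the medians were 0.24 and -0.33.

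**Figure D3:**
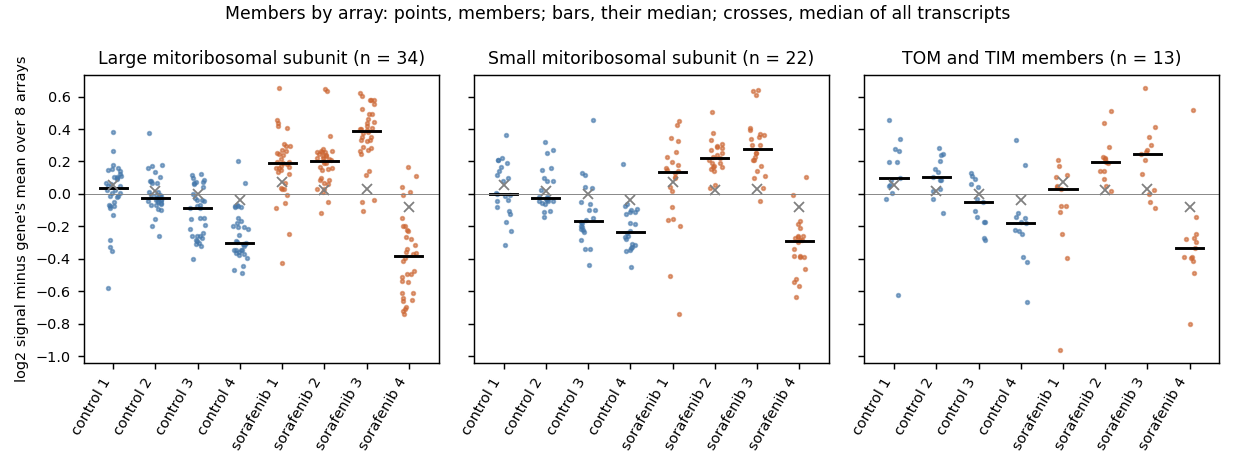
Log2 signal of each member minus its mean over the 8 arrays, by array. Panels show mrpl genes (34, labelled large subunit), mrps genes (22, labelled small subunit) and TOM and TIM genes (13). Points are genes, bars their median and crosses the median of all transcripts; in each panel the lowest median is that of sorafenib replicate 4 and the highest that of sorafenib replicate 3.

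The members' median fold change ran from +0.07 to +0.28, depending on which single array was left out. Without sorafenib replicate 4 the median fold change was +0.28 and 13 members were higher at an unadjusted p under 0.05, against 9.35% of all transcripts higher in the same fit; 0 passed the adjusted threshold. On those 7 arrays 28 of 71 members had all sorafenib values above all controls, as did 9.46% of all transcripts. Without control replicate 4 the median was +0.10, with 50 members positive, against 45.7% of all transcripts. Without sorafenib replicate 3 it was +0.07, with 50 positive, against 46.8%. Without sorafenib replicates 2 and 3 together it was -0.06, with 27 members positive, against 46.9%, and 0 past the unadjusted threshold. Members stood highest on these arrays (0.21 and 0.33), so a lower median followed from the choice of arrays. Likewise, a higher median followed from leaving out sorafenib replicate 4, where members stood lowest. Without both replicate 4 arrays, a setting chosen after seeing the data, the members' median was +0.24, with 4 members higher against 6.17% of all transcripts. With the authors' deposited table as the source of log2 values, 6 members were higher and 2 lower at an unadjusted p under 0.05, against 5% and 4.28% of all transcripts there, and with array weights in the fit 10 were higher, against 11.7%.

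Fold changes were also taken within each of the slides that held the arrays. Replicates 1 and 2 of both groups lay on slide 1 and replicates 3 and 4 on slide 2. The members' median fold change was +0.14 on slide 1 and +0.15 on slide 2, with 56 and 58 members positive, 50 of them on both. Of all transcripts, 49.4% were positive on slide 1 and 48% on slide 2. The share of all transcripts positive on both slides was not computed, so the members' count on both has no background beside it. The TOM and TIM genes had medians of -0.02 on slide 1 (6 of 13 positive) and +0.07 on slide 2 (9 of 13). Single members turned sign between the slides, such as mrpl13 (+0.50 and -0.26) and timm10 (-0.22 and +0.22), both named after their values were seen. The mrpl13 probe was dim, with a mean log2 signal of -2.44 in controls. Within slide 2, sorafenib minus control was +0.45 for replicate 3 and -0.13 for replicate 4, as medians over members. Within slide 1 it was +0.09 and +0.20.

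Heart muscle, liver and neural markers stood out on some of the same sorafenib arrays, and other marker lists did not all do so. A marker score is the mean, over the measured genes of a list, of each gene's log2 signal relative to its mean over the 8 arrays. The heart muscle score (13 measured of 20) was -0.61 to 0.07 in controls and -0.08, 0.60, 0.74 and -0.26 in sorafenib replicates 1 to 4. The neural score (25 of 35) was 0.08 to 0.49 in controls and 0.20, -0.76, -1.11 and 0.29 with sorafenib. The liver and plasma protein score (18 of 31) was -0.89 to 0.39 in controls and 0.36, 0.55, 1.22 and -0.49 with sorafenib. Sorafenib replicates 2 and 3, where the mitochondrial members were highest, were thus high in heart muscle and liver markers and low in neural ones, and replicate 4 was within the control range in all 3.

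Scores of the digestive tract, pancreas and yolk (19 of 28) ran from -1.69 to 1.25 in controls and -0.06 to 1.82 with sorafenib, and those of blood (10 of 12) from -0.72 to 0.08 and -0.02 to 0.43. Eye and lens (5 of 16) ran from -0.59 to 0.13 and -0.77 to 1.69. The eye and lens score was highest on sorafenib replicate 2 and lowest on replicate 3, where members stood highest. The digestive score was also highest on sorafenib replicate 3 (1.82). It was 1.25 and -1.69 on control replicates 1 and 2, where members stood at 0.05 and -0.01. On sorafenib replicate 4, where members stood lowest, it was 0.13. The endothelial and endocardial score (16 of 24) did not follow the members either. It was 0.22 to 0.32 in controls and -0.35 to -0.19 on all 4 sorafenib arrays. Markers well above background on no array were vtg2, vtg4 and vtg5 for yolk, crybb1 and gnat1 for eye, and cdh5, flt1 and kdrl for endothelium. With the neural and liver scores as covariates in the fit, the members' median fold change was -0.16. Of the members 15 were positive, against 45.1% of all transcripts. At an unadjusted p under 0.05, 3 were lower (timm10, tomm20a and mrps34), against 3.69% of all transcripts lower in that fit. Both scores came from the same arrays as the members and left the control range on some sorafenib arrays. That fit thus cannot separate the drug from the tissue content of the samples. The part of these markers in the members' values was not tested.

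**Figure D4:**
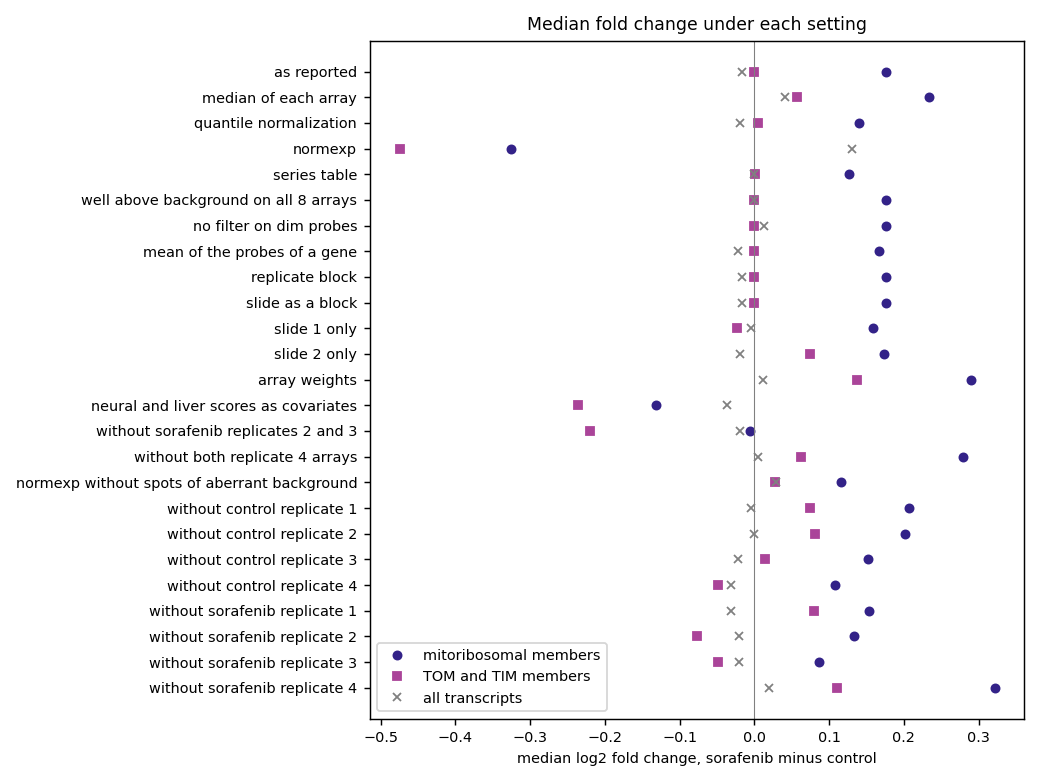
Median log2 fold change, sorafenib minus control, of the 56 mitoribosomal members, the 13 TOM and TIM members and all transcripts under each processing setting. The mitoribosomal median was +0.18 as reported and ran from -0.33 (normexp) to +0.32 (without sorafenib replicate 4). It was +0.12 with normexp without spots of very high local background. It was negative also with the neural and liver scores as covariates (-0.13). Without sorafenib replicates 2 and 3, the sorafenib arrays where members stood highest, it was -0.01.

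Other parts of mitochondrial gene expression were set beside the members by lists chosen from known function. No gene in them passed the adjusted threshold. The list of mitoribosomal proteins with other symbols had 5 of 6 measured, a median of +0.15 and 0 past the unadjusted threshold. It also held oxa1l (+0.18), which encodes an insertase and not a ribosomal protein. The small subunit genes ptcd3 (+0.17) and dap3 (+0.13) were among those measured. Import and processing genes with other symbols had 17 of 23 measured, with a median of +0.12, 14 positive and 0 past the unadjusted threshold. The smallest p-values there belonged to gfer (+0.51, interval -0.17 to 1.18) and chchd4a (+0.45, interval -0.18 to 1.07). Their products form the disulfide relay that traps proteins in the intermembrane space. The motor chaperone gene hspa9 was at +0.15, and at -0.03 by the mean of its probes.

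Genes that charge mitochondrial transfer RNAs had the highest median of these lists, +0.30 over 8 measured of 17, with 7 positive and 3 higher at an unadjusted p under 0.05, against 4.12% of all transcripts. The seryl-tRNA synthetase gene sars2 read 1.12, 1.06, 1.02 and 1.02 in controls and 1.51, 1.50, 1.57 and 1.45 with sorafenib. All sorafenib arrays, replicate 4 included, were above all controls, and 2.24% of all transcripts were entirely higher in this way. Its fold change was +0.45 with an interval of 0.14 to 0.77 (adjusted p = 0.563 by limma). On the log2 values of the authors' deposited table, in place of the scanner signals, the limma fit for sars2 gave +0.39 with an adjusted p of 0.0222. After normexp its fold change was +0.10 (adjusted p = 0.778 by limma), the lowest of the settings tried. Over those settings its adjusted p ran up to 1.00. The phenylalanyl enzyme gene fars2 was at +0.60 (interval 0.12 to 1.09, adjusted p = 0.628 by limma) and overlapped with the controls only through replicate 4. The prolyl enzyme gene pars2, named after its value was seen, was at +0.49 (adjusted p = 0.656 by limma).

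Translation factors had 9 of 18 measured and a median of +0.13. At an unadjusted p under 0.05, 1 was higher, against 4.12% of all transcripts. The higher gene was taco1, needed for translation of a cytochrome c oxidase subunit. It read 2.11, 2.16, 2.09 and 2.16 in controls and 2.48, 2.56, 2.76 and 2.29 with sorafenib, without overlap. Of all transcripts, 2.24% were entirely higher. The fold change of taco1 was +0.39 (adjusted p = 0.656 by limma). The elongation factor gene tufm was at +0.22 (interval -0.20 to 0.65).

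Factors of mitoribosome assembly had 13 of 24 measured and a median of +0.18. At an unadjusted p under 0.05, 0 were higher and 1 lower, against 4.12% and 3.35% of all transcripts. The lower gene was gtpbp10, a GTPase of large subunit assembly. It read 0.10, -0.08, -0.01 and -0.63 in controls and -0.84, -0.62, -0.76 and -0.87 with sorafenib, and overlapped through control replicate 4. Its fold change was -0.61 (interval -1.06 to -0.17, adjusted p = 0.577 by limma). Another assembly GTPase, mtg1, was at +0.42 (interval -0.04 to 0.87).

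Chaperones and proteases of the matrix and inner membrane had 9 of 18 measured, a median of +0.18 and 0 past the unadjusted threshold. The chaperonin gene hspd1 was at +0.52 (SE 0.26) and its co-chaperonin gene hspe1 at +0.40 (SE 0.26). Genes of mitochondrial DNA maintenance and transcription had 8 of 13 measured and a median of -0.01, with 0 past the unadjusted threshold. The DNA packaging and transcription factor gene tfam was at -0.11 (interval -0.46 to 0.24), the topoisomerase gene top1mt at +0.39 and the ribonuclease gene rnaseh1 at +0.20. In rnaseh1 the sorafenib arrays (2.40 to 2.58) did not overlap with the controls (2.16 to 2.39), and 2.24% of all transcripts were entirely higher.

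Regulators of mitochondrial biogenesis had 9 of 16 measured and a median of -0.13. At an unadjusted p under 0.05, 0 were higher and 1 lower, against 4.12% and 3.35% of all transcripts. The lower gene was gabpa, which encodes the DNA-binding subunit of an activator of nuclear genes for mitochondrial proteins. It read 2.94, 2.52, 2.60 and 2.15 in controls and 2.26, 1.92, 2.13 and 1.94 with sorafenib, and only control replicate 4 fell within the sorafenib range. Its fold change was -0.49 (interval -0.95 to -0.04, adjusted p = 0.656 by limma). The Myc gene mycb was at +0.38 (interval -0.12 to 0.89).

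Respiratory chain and ATP synthase genes, set beside the members for comparison, had 67 of 69 measured, a median of +0.16 and 60 positive. At an unadjusted p under 0.05, 0 were higher and 1 lower, against 4.12% and 3.35% of all transcripts. The lower one was ndufa4l2a (-0.61, adjusted p = 0.660 by limma). It was taken into this list by its nduf prefix alone, and a place of its product in the chain was not checked. The succinate dehydrogenase gene sdhdb was at +0.28. Cytosolic ribosomal protein genes had 76 of 76 measured, a median of +0.08 and 69 positive, with 0 past the unadjusted threshold. Among these genes were rpl10a (+0.30) and rps27.2 (+0.36). Both lists stood lowest on sorafenib replicate 4, at -0.45 and -0.63 as medians over genes, as the mitochondrial ribosome did.

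**Figure D5:**
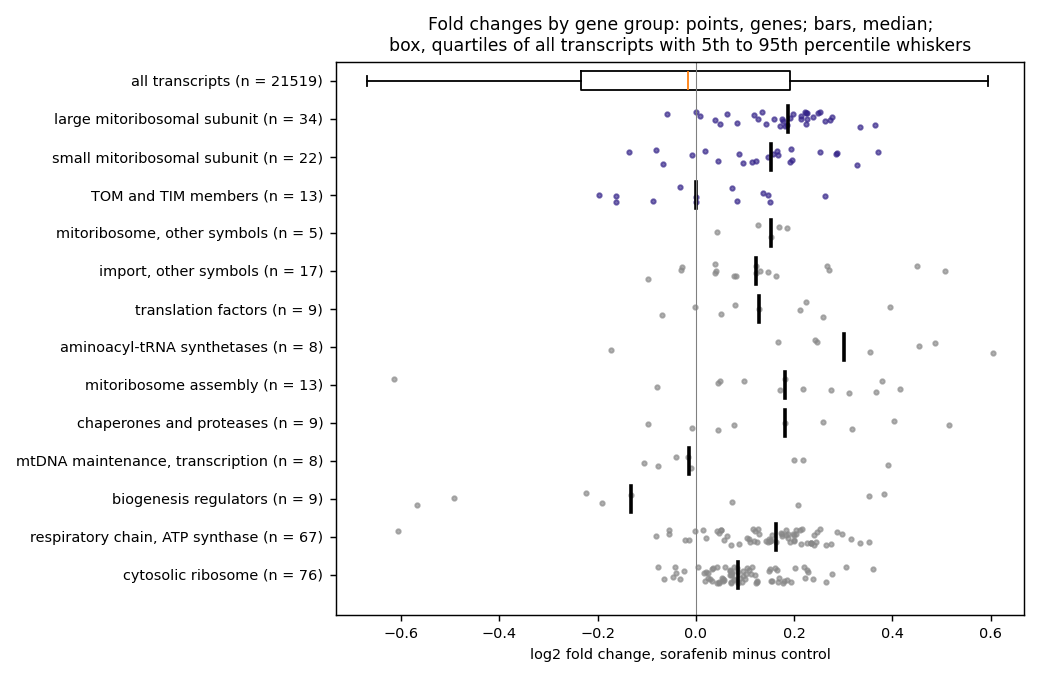
Log2 fold change, sorafenib minus control, of single genes (points) by gene group, with the group median as a bar, beside the quartiles and 5th to 95th percentiles of all transcripts. Group medians ran from -0.13 for regulators of biogenesis to +0.30 for aminoacyl-tRNA synthetases under the 75th percentile scaling. After normexp the medians of the mitoribosomal and of the TOM and TIM members were negative. With normexp without spots of very high local background they were +0.12 and +0.03.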

How the data were processed

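The authors deposited scanner files in which the processed signal is a linear intensity, background-subtracted within the array by Feature Extraction 10.1.1.1 per the file headers; the submitters' processing notes name version 8.0. A table deposited by the authors holds log2 values whose direction follows from its match to each array (r of 0.975 to 0.985, column medians 7.20 to 7.22), while its centring stays unknown; it served as an alternative. From each log2 signal the 75th percentile of its array (84.2 to 153 before log2) was taken away, without control spots and 5 to 15 outlier spots per array, from 43603 probes. Probes were named by RefSeq accession. Files carry an older genome build, so no coordinates or sequences are given. The brightest measured probe stood for a gene. limma 3.58.1 (R 4.3.3) compared 4 sorafenib with 4 control arrays without covariates. The fit was also run on simulated data with independent noise and the same spread in both groups. Those data lacked the shifts shared by members and the larger sorafenib spread seen here, so that run does not cover them. P-values set the difference between groups against the spread between these arrays, which limma moderates over all transcripts.

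Members and lists were chosen with earlier results of these data known. Named by rule were up to 20 members at an unadjusted p under 0.05 (0 were found), the 2 smallest p-values per role class and per list, and hspa9, hspd1, tufm and tfam, 34 genes in all. Marker genes and members singled out for their sign, probes or place were named afterwards. Alternatives covered scaling, background, probe filter and choice, slide, replicate block, array weights, marker covariates and left-out arrays.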

Additional observations from a re-analysis of the deposited data

Results flagged for a closer look

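Among 70 groups of 4 arrays examined, 3 held an array far from the other 3 by Dixon's criterion, and chance flags about 1 in 20 groups. For timm13 with sorafenib, replicate 4 read 3.61 on the log2 scale against 3.94 to 4.00 on the others. For ptcd3, replicate 1 was low in both groups, at 0.16 against 0.82 to 0.93 in controls and at 0.41 against 0.98 to 1.08 with sorafenib.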

How the results depend on the processing

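The count of members past the adjusted threshold was 0 under all settings tried. The number of arrays and the spread between them both limit what could be called. Transcripts past that threshold were 0 as reported, 1 with scaling to the median, 2 with quantile normalization, 7 in the deposited table, 48 with array weights, 1 with normexp without aberrant spots and 0 to 1 when single arrays were left out (1 without control replicate 3).

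Members higher at an unadjusted p under 0.05 numbered 6 in the deposited table (5% of all transcripts there) and 10 with array weights (11.7%). They numbered 4 without both replicate 4 arrays (6.17%), 3 with normexp without aberrant spots (3.64%) and 0 to 13 when single arrays were left out (2.34% to 9.35%). Members lower numbered 2 in the deposited table (4.28%) and 3 with marker covariates (3.69%). The median of the members was -0.34 with normexp, where that of all transcripts was 0.13, and -0.16 with marker covariates; it ran from 0.07 to 0.28 with single arrays left out. Positive members numbered 11, 15 and 27 with normexp, marker covariates and without sorafenib replicates 2 and 3 (where members stood highest), and 50 to 64 with single arrays left out. Of all transcripts 57.6%, 45.1% and 46.9% were positive in those settings, and 45.7% to 51.9% with single arrays left out. In normexp, 10 spots on sorafenib replicate 1 and 6 on replicate 4 had a background above the spot, up to 164405 against an array median of 17 to 21. Leaving them out, chosen after seeing the data, gave +0.09 and 53 positive of 70 members, against 58.7% of all transcripts.

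The labels do not say that replicate numbers pair the arrays. Deviations of same-numbered arrays correlated at 0.27, 0.42, 0.04 and 0.70 over all transcripts, and at 0.61, 0.49, 0.16 and 0.63 over the members. Not every pair exceeded 0.1 over all transcripts, so the block stayed an alternative, although 7 of 8 arrays correlated best with their own number, a hint from the data. With replicate number as a block, the members' median was 0.15, 58 were positive, and 0 passed the adjusted or the unadjusted threshold; 0 transcripts passed the adjusted one. Among the other lists, gfer, hspd1, mycb, rps27.2 and mterf3 were then higher at an unadjusted p under 0.05, 1 in each of their lists, where 0 had been; 6.57% of all transcripts were higher and 6.83% lower at that level, against 4.12% and 3.35% without the block.

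Of the named genes' values, 43 changed sign, 772 kept their sign and side of the threshold, and sars2 passed it in the deposited table (0.39, adjusted p = 0.0222 by limma). Those that changed sign with normexp were mrpl37 (-0.32), mrpl9 (-0.041), mrps25 (-0.27), mrps23 (-0.15), timm13 (-0.48), timm8a (0.25), timm50 (-0.47), tomm20a (-0.11), ptcd3 (-0.070), dap3 (-0.62), taco1 (-0.12), tufm (-0.46), hspe1 (-0.43), rnaseh1 (-0.32), mycb (-0.26), sdhdb (-0.24), rpl10a (-0.17), rps27.2 (-0.11) and hspa9 (-0.57). No named gene changed sign with normexp without the aberrant spots, a setting chosen after seeing the data. With marker covariates the genes that changed sign were tomm34 (-0.28), timm50 (-0.15), tomm20a (-0.58), dap3 (-0.17), gfer (-0.092), chchd4a (-0.029), hspe1 (-0.073) and hspa9 (-0.23). Without sorafenib replicates 2 and 3, where members stood highest, they were tomm34 (-0.24), timm50 (-0.037), tomm20a (-0.36), ptcd3 (-0.0018), dap3 (-0.093) and hspa9 (-0.16). On slide 1 they were tomm20a (-0.023) and hspa9 (-0.053), with array weights timm8a (0.0042), and by the mean of probes hspa9 (-0.031). With single arrays left out, tomm34 ran from -0.074 to 0.21, ptcd3 from -0.0073 to 0.32 and tomm20a from -0.053 to 0.44. Beyond the normexp spots, the cause was not tested.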
